A study of Mus musculus with 26 samples.

Results

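Interferon-stimulated genes (ISGs) were followed in the choroid plexus (ChP), the epithelial tissue of the brain ventricles that makes cerebrospinal fluid. The 43 genes were taken by symbol from the deposited tables and are a list of genes known for induction by interferons or for a part in the response. All 43 were found among 55416 annotated genes, and 39 passed the minimum of a mean of 1 CPM (counts scaled to the size of the library) in both main groups, as 13697 genes did. Zbp1, Oas1a, Oas2 and Isg15 stayed below it and are described by their values only. The series held 26 libraries of bulk RNA, 1 per adult male mouse. The Ctrl group was 12 C57Bl6J mice after sham surgery, and the SCNx group was 12 C57Bl6J mice after an electrolytic lesion of the suprachiasmatic nucleus, the master circadian pacemaker of the hypothalamus. Both groups were placed in constant darkness, and 1 mouse per group was taken every 4 h from circadian time (CT) 0 to CT44. The KO group was 2 tamoxifen-treated FoxJ1-ERT2-Cre+/-; Bmal1fl/fl mice kept in a light-dark cycle, 1 taken at ZT7 and 1 at ZT18, in which the clock gene Bmal1 (Arntl in the tables) is deleted in cells that use the FoxJ1 promoter, a promoter of ciliated cells including ChP epithelium. Their ChP was cut from frozen sections by laser and prepared with another library kit, while the other groups' ChP was dissected by hand. In all groups the ChP came from the fourth ventricle.

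The ISGs are the transcripts that a cell raises when interferon reaches its receptor. Type I interferons bind IFNAR1 and IFNAR2, the kinases JAK1 and TYK2 are then activated, and a complex that holds STAT2 and IRF9 binds the interferon-stimulated response element (ISRE) in promoters. Interferon gamma acts on the gamma-activated site (GAS). The products block viruses at entry, replication and assembly, and the ChP, a border between blood and cerebrospinal fluid, is known as a site of interferon signalling in the brain.

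Promoters of 6 members are printed to show the ISRE, which part of the members carry, and a member that lacks it in this window. Each is the run of 200 bases that ends just before the transcription start, from RefSeq on build GRCm38.p6, 5′ to 3′ on the gene's strand, with matches to the ISRE core (GAAA, any 2 bases, GAAA) or its reverse complement in capitals. The counts themselves were made on another build, GRCm39, so the coordinates serve only to place these sequences.
Ifit1 (chr19:34640689-34640888, plus strand): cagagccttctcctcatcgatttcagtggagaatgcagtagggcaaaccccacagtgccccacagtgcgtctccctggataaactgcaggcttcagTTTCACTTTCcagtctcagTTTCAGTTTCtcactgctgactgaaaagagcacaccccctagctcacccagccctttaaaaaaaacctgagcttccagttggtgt
Ifit3 (chr19:34583329-34583528, plus strand): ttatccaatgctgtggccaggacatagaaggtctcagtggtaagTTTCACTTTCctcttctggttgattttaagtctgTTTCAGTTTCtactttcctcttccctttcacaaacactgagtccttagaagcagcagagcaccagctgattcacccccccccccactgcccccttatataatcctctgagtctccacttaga
Ifit3b (chr19:34607757-34607956, plus strand): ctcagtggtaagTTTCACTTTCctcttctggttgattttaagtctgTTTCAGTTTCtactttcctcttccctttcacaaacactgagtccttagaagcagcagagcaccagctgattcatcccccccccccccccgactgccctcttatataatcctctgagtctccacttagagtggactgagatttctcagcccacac
Isg15 (chr4:156200819-156201018, minus strand): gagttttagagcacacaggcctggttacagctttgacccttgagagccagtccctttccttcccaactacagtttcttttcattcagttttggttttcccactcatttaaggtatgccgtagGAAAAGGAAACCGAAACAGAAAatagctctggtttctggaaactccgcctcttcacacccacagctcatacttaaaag
Irgm1 (chr11:48871421-48871620, minus strand): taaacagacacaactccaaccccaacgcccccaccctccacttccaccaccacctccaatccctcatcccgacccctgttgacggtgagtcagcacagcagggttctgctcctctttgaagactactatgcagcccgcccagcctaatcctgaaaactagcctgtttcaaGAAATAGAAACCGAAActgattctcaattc
Ifitm1 (chr7:140967876-140968075, plus strand): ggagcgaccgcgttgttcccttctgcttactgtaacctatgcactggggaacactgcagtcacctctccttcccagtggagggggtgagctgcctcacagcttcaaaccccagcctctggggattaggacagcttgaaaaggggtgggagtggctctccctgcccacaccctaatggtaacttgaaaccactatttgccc
Ifit1, Ifit3 and Ifit3b, neighbours on chromosome 19, each carried 2 matches, and Isg15 carried 3 that overlap. No match lay in the window of Ifitm1. In windows of 300 bases, from 250 before to 50 after the start, 36 of the 43 members had an entry. The ISRE core was found on either strand in 18 of these 36, or 50%, against 3.99% of 27025 genes with a window. Ifit2, also on chromosome 19, had 0 matches to it in its windows of this size. The GAS motif TTCNNNGAA was found, on either strand, in 13 of the 36, or 36.1%, against 9.55% of all genes. The E-box CACGTG, the site of the CLOCK and BMAL1 pair, was found in the window of Trim25 alone, against 8.09% of all genes. Zbp1, Oas2, Usp18, Parp9, Parp14, Ifi27 and Rtp4 had no entry. A match is a run of letters and was not tested as a bound site.

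The libraries held between 38751201 and 49527655 estimated counts in Ctrl and SCNx, and 17425207 and 18059227 in KO. Values are given as CPM scaled by TMM, a factor that equalises libraries for composition. CPM carries no correction for gene length, so levels are compared between libraries and not between genes. The 10 markers of ChP epithelium summed to 141507 to 166737 CPM in Ctrl and 99303 to 167953 in SCNx, so the tissue carried its label. Some libraries stood apart in other markers. Of 5 hepatocyte markers, 0 were absent from all 24 libraries. Their sum had a median of 1.72 CPM in Ctrl and 2.94 in SCNx, while it was 1441 for the mouse of CT16 in Ctrl and 9859 for that of CT0 in SCNx. The 7 neuronal markers summed to 325 CPM in Ctrl CT4 and 324 in SCNx CT32, against medians of 17.03 and 15.3, and 5 astrocyte markers stood there at 725 and 772, against medians of 149 and 143. In bulk tissue, fewer cells of a type and less RNA per cell cannot be told apart.

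The receptor subunits differed little between mice. Ifnar1 ranged over 39.9, 41.3 and 45.6 CPM in Ctrl (lowest, median, highest of 12) and over 37.2, 41.5 and 43.7 in SCNx. Ifnar2 ranged over 58.0, 62.02 and 65.4 CPM in Ctrl, and over 41.5, 59.0 and 68.5 in SCNx, where the lowest value belonged to SCNx CT32. The groups overlapped for both genes. The transcription factors differed in how far single mice departed. Stat2 and Irf9, which belong to the ISRE-binding complex, ranged from 13.6 to 21.96 and from 20.4 to 26.4 CPM in Ctrl. Irf7, which amplifies the response and is itself an ISG, had a Ctrl median of 4.72 CPM with 1 library at 10.3 and the next at 5.81. In SCNx its median was 4.48, with SCNx CT20 at 10.6 and SCNx CT0 at 8.12. High values of Irf7 thus came from single mice in both groups.

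Among sensors and effectors, Ifih1 (MDA5, a sensor of double-stranded RNA), Eif2ak2 (the kinase PKR) and Samhd1 (which depletes nucleotides) varied little. Eif2ak2 ran from 38.3 to 49.7 CPM in Ctrl and from 36.0 to 52.6 in SCNx. Adar, the editor that keeps cellular double-stranded RNA from being sensed, stayed between 39.9 and 47.0 CPM in Ctrl. In SCNx, 11 libraries lay between 38.4 and 45.2 CPM and SCNx CT32 stood alone at 71.5. That library also had the lowest epithelial sum, 99303 CPM, and high neuronal and astrocyte sums. The part of these markers in the Adar value was not tested. Zbp1, a sensor of Z-form nucleic acid, had a Ctrl median of 0.446 CPM and reached 2.59 in Ctrl CT16, 5.81 times its median.

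The IFIT proteins bind viral RNA ends and block its translation. Ifit1 ranged over 1.28, 2.53 and 6.45 CPM in Ctrl and 1.31, 2.84 and 3.98 in SCNx. Ifit3 ranged over 3.67, 5.45 and 14.02 CPM in Ctrl and 3.24, 5.72 and 9.91 in SCNx. Ctrl CT16 gave the highest Ctrl value of both, at 2.55 and 2.57 times the medians. Ifit3 and Ifit3b are near copies, so how shared reads were split between them is uncertain, as it is within the Ifitm and Gbp families. In the ISG15 system, Isg15 (the ubiquitin-like modifier) had medians of 0.908 CPM in Ctrl and 0.896 in SCNx, and Usp18, which removes it and quiets the receptor, had medians of 1.19 and 1.23. Trim25, a ubiquitin ligase that acts in RNA sensing, ranged from 35.1 to 48.8 CPM in Ctrl and from 35.2 to 48.2 in SCNx.

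Among restriction factors, the IFITM proteins hinder fusion of viruses with membranes. Ifitm3 ranged over 25.5, 30.8 and 60.4 CPM in Ctrl, where the next highest library was at 35.9. In SCNx it ranged over 23.5, 32.6 and 50.6 CPM. The highest libraries were Ctrl CT16 and SCNx CT0, the 2 with hepatocyte markers. Bst2 (tetherin, which holds budding virions) ranged from 28.4 to 42.1 CPM in Ctrl and from 21.0 to 47.9 in SCNx. Rsad2 (viperin) ranged over 3.21, 4.24 and 7.50 CPM in Ctrl and 4.24, 5.80 and 9.64 in SCNx. The GTPases, which attack the vacuoles of intracellular microbes, had their highest SCNx values mostly in SCNx CT20. Irgm1 ranged over 12.4, 15.8 and 27.7 CPM in SCNx and over 12.8, 16.8 and 21.3 in Ctrl. Ifi27, Lgals3bp and the remaining members overlapped between groups as well.

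Many members had their extreme values in the same mice. The standard deviation of log2 CPM over the 24 libraries had a median of 0.23 over the 39 tested members against 0.16 over all tested genes, and 30 of the 39 lay above that median of all genes. Without Ctrl CT16 and SCNx CT0 the medians were 0.23 and 0.16, with 28 of 39 above. Counting error adds to this spread where counts are low and was not separated from it. Ifit3b had the widest spread of the tested members, 0.68, followed by Ifit1 at 0.61, Ifi44 at 0.57, Ifit3 at 0.57 and Irf7 at 0.51. Ifnar1 was at the other end with 0.07.

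**Figure D1:**
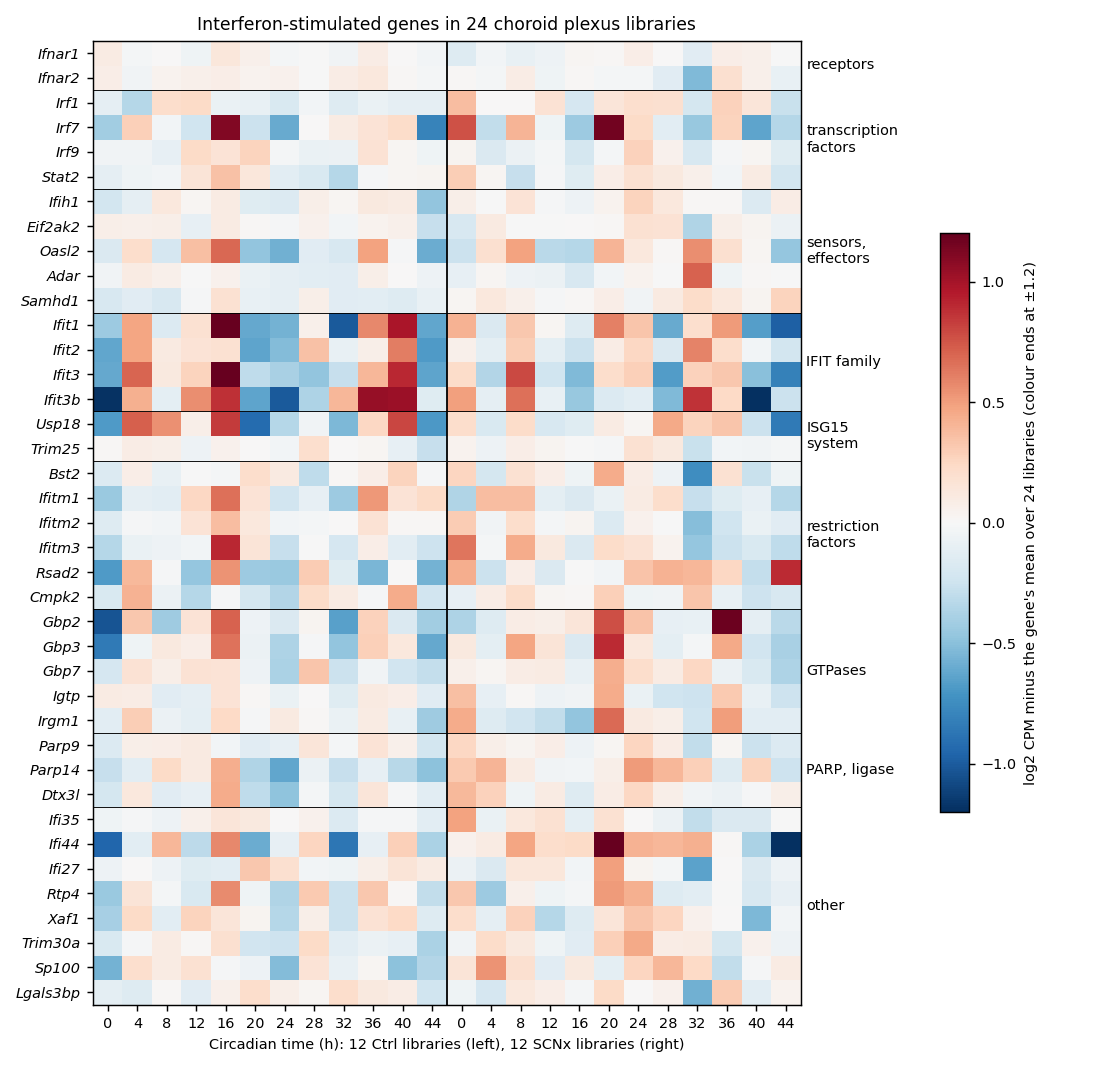
Log2 CPM of the 39 tested members (rows, grouped by role) in 24 libraries (columns, by circadian time), each minus the gene's mean over the 24 libraries, where red is above and blue below that mean. The column of Ctrl CT16 is red for most members, and 21 of 39 had their highest Ctrl value there.

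Of the 12 Ctrl libraries, Ctrl CT16 was the highest for 21 of 39 members, or 53.8%, against 8.42% of all tested genes. These 21 came from all 9 roles. They included Irf7, Stat2, Oasl2, Ifit1, Ifit3, Usp18, Ifitm1, Ifitm2, Ifitm3, Rsad2, Gbp2, Gbp3, Parp14, Dtx3l, Ifi44 and Rtp4. The untested Zbp1, Oas1a and Isg15 also peaked there, Isg15 at 2.37 CPM. The median member lay 0.18 above its own mean on the log2 scale in that library, and the median of all genes lay at -0.01. Ctrl CT40, the library of the same phase in the second cycle, was the highest for 3 members, or 7.69%, against 9.45% of all genes. At the low end, Ctrl CT0 was the lowest Ctrl library for 12 of 39 members, against 9.17% of all genes, among them Ifitm1, Ifitm2, Ifitm3, Gbp2, Gbp3 and Rsad2. Ctrl CT44 was the lowest for 11, against 15.4% of all genes.

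Ctrl CT16 was also the Ctrl library with hepatocyte markers and with the highest erythroid sum, 1500 CPM over 4 markers against a Ctrl median of 882. Its macrophage and microglia markers, 10 in all, summed to 131 CPM, within the Ctrl range of 90.3 to 147. The part of these markers in the members' level was not tested. SCNx CT0 had the larger hepatocyte sum of 9859 CPM, and the median member lay 0.15 above its own mean there. In that library the highest SCNx value was found for 6 of 39 members, or 15.4%, against 13.5% of all genes.

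In SCNx no library held as many of the highest values as Ctrl CT16 did in Ctrl. SCNx CT20 was the highest for 10 of 39 members, against 5.98% of all genes, namely Irf7, Ifit1, Bst2, Gbp3, Gbp7, Igtp, Irgm1, Ifi44, Ifi27 and Rtp4. SCNx CT24 was the highest for 9, against 6.16% of all genes, among them the sensors of double-stranded RNA Ifih1 and Eif2ak2 and the pair Parp9 and Parp14. In SCNx CT24 the median member lay 0.19 above its own mean on the log2 scale, and the median of all genes lay at 0.004. SCNx CT44 was the lowest for 10 members, against 5.03% of all genes, and the highest for Rsad2 and Samhd1. Its erythroid markers summed to 6517 CPM against an SCNx median of 532, its lymphocyte markers to 10.1 against 1.80 and its neutrophil markers to 7.76 against 0.914, and their part in these values was not tested. SCNx CT32 was the lowest for 10 too, or 25.6%, but it was the lowest for 37.4% of all genes. With 1 mouse at each time, the mouse and its circadian time cannot be told apart in these counts.

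**Figure D2:**
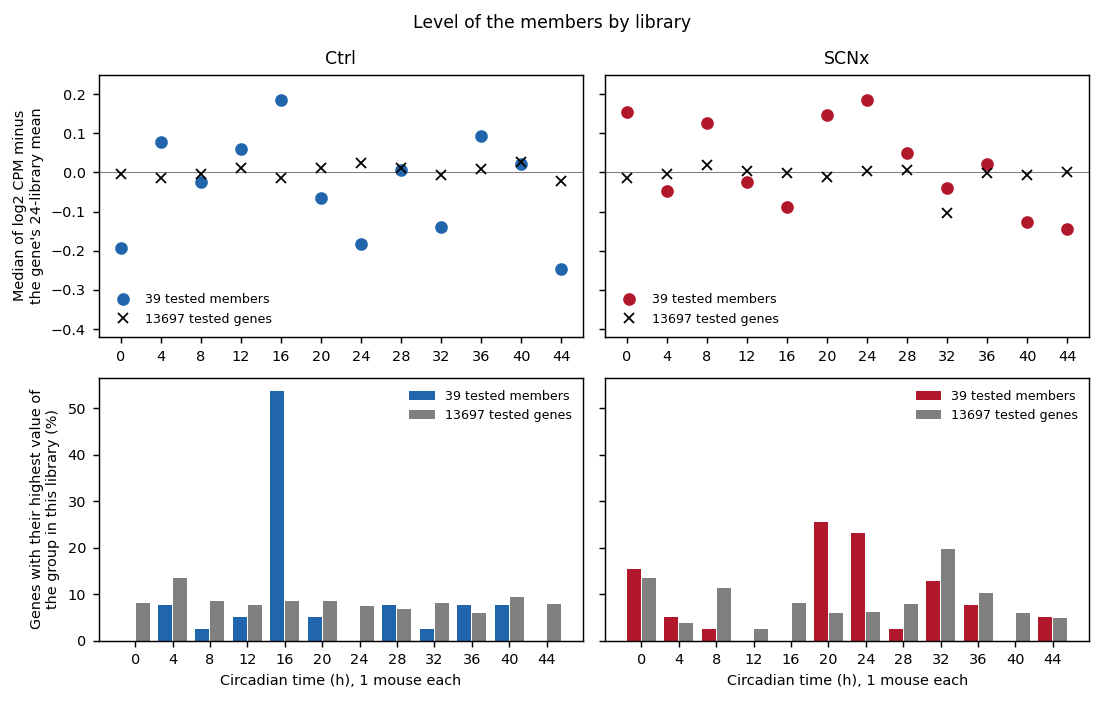
Upper panels show, for each Ctrl (left) and SCNx (right) library by circadian time, the median over genes of log2 CPM minus the gene's 24-library mean, for 39 members (filled points) and 13697 genes (crosses). Lower panels show the percentage of genes whose highest value of the group fell in that library, 53.8% of members against 8.42% of all genes for Ctrl CT16.

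The level in SCNx was set against Ctrl over all times, which asks whether loss of the pacemaker shifts the ISGs as a whole. No member passed the edgeR quasi-likelihood test at an adjusted p of 0.05, nor did any under DESeq2 or limma, and 0% of all tested genes did so in edgeR. At an unadjusted p under 0.05, 5 of 39 members had a higher level in SCNx, against 4.78% of all tested genes, and 0 were lower, against 4.58%. In all, 28 members had a higher and 11 a lower estimate, or 71.8% higher against 56.5% of all genes. The median member differed by 0.04 on the log2 scale and the median gene by 0.01. The members' median moved to 0.01 without SCNx CT0, to 0.02 without SCNx CT20, Ctrl CT24, Ctrl CT32 or Ctrl CT44, to 0.03 without Ctrl CT0, to 0.06 without SCNx CT40 and to 0.08 without Ctrl CT16.

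The 5 were Samhd1, Parp14, Sp100, Irf1 and Rsad2. Samhd1 ranged over 18.0, 19.0 and 23.4 CPM in Ctrl and 20.0, 21.6 and 24.9 in SCNx, a log2 difference of 0.18 ± 0.05 (SE, n = 12 per group) with an edgeR adjusted p = 0.366. The ranges overlapped, and the highest Ctrl value belonged to Ctrl CT16. Parp14, an ADP-ribosyltransferase, ranged over 6.71, 9.05 and 14.1 CPM in Ctrl and 8.72, 11.8 and 14.8 in SCNx, with a log2 difference of 0.32 ± 0.11 and an edgeR adjusted p = 0.432. Rsad2 differed by 0.34 ± 0.16, Sp100 (a nuclear body protein) by 0.24 ± 0.11 and Irf1 by 0.16 ± 0.07. On the other side stood Ifit3 at -0.21 ± 0.23, Ifitm1 at -0.10 ± 0.12, Ifitm2 at -0.08 ± 0.07, Ifnar2 at -0.07 ± 0.04 and Irf9 at -0.07 ± 0.05, none of them past the test. Without Ctrl CT16 the estimates were -0.05 for Ifit3, -0.03 for Ifitm1 and -0.05 for Ifitm2, without Ctrl CT40 that of Ifit3 was -0.13, without Ctrl CT36 that of Ifitm1 was -0.06, and without SCNx CT32 that of Ifnar2 was -0.04. Without Ctrl CT16 and SCNx CT0, the count of members with a higher level at an unadjusted p under 0.05 was 8, against 6.21% of all genes, and 8 without Ctrl CT16 alone. It was 2 without Ctrl CT0, Ctrl CT24 or SCNx CT28, and 3 without Ctrl CT40, Ctrl CT44, SCNx CT0, SCNx CT24 or SCNx CT32. All 10 macrophage and microglia markers had a higher mean in SCNx, with a median sum of 109 CPM in Ctrl and 126 in SCNx. So did 7 of 8 lymphocyte, 4 of 4 neutrophil, 4 of 4 erythroid, 5 of 5 hepatocyte and 3 of 4 endothelial markers. The median erythroid sum, however, was 882 CPM in Ctrl and 532 in SCNx. Counts for the other cell types ran from 1 of 10 epithelial to 4 of 5 astrocyte markers. The part of all these markers in the members' estimates was not tested.

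**Figure D3:**
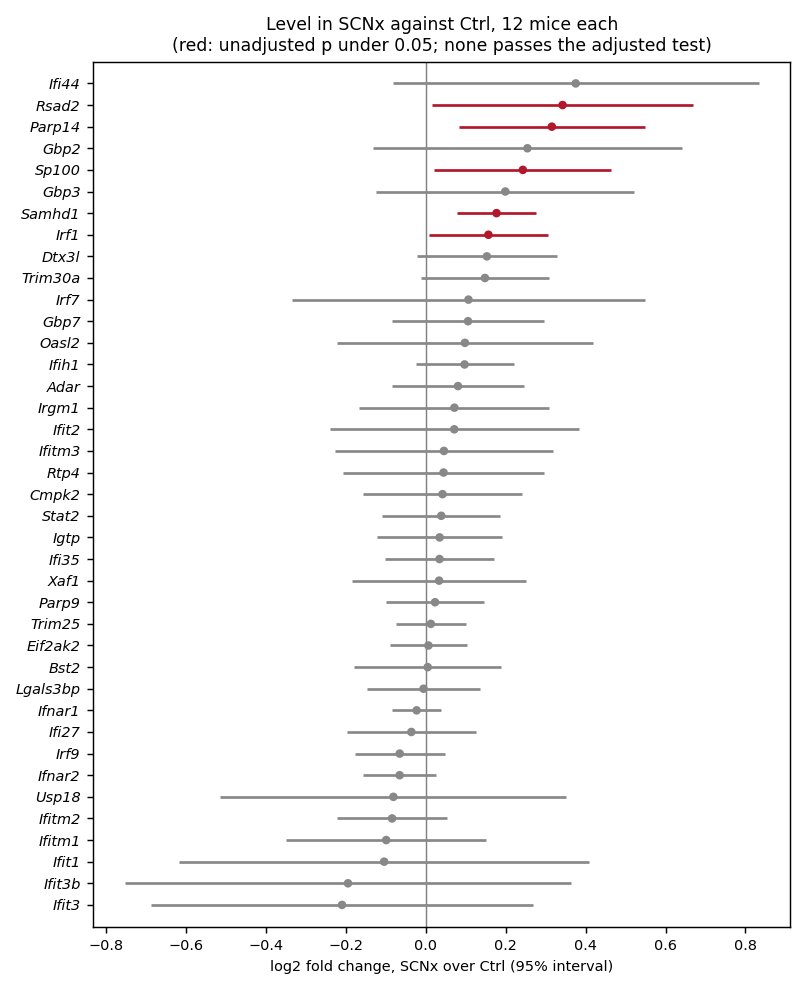
Log2 fold change of SCNx over Ctrl for the 39 tested members with its 95% interval, 12 mice per group. Intervals of 5 members in red exclude 0 on the high side, and none passed the adjusted test. The largest of these 5 estimates is 0.34 for Rsad2, with an interval from 0.015 to 0.669.

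Rhythms were tested by adding a 24 h cosine and sine to the model of each group, which asks whether the ISGs follow the clock and whether this depends on the pacemaker. In Ctrl, 3 of 39 members passed at an adjusted p of 0.05, or 7.69%, against 10.7% of all tested genes. At an unadjusted p under 0.05 there were 9, against 24.8%. The share of rhythmic members was thus no larger than that of genes at large in this fit of all libraries. The count of 9 was 5 without Ctrl CT0, 4 without Ctrl CT24, 13 without Ctrl CT4 and 15 without Ctrl CT4 and SCNx CT32. Calls over all genes moved too, from 1459 of 13697 to 2223 of 13490 at an adjusted p of 0.05 without Ctrl CT4 and SCNx CT32. In SCNx, 0 members passed in edgeR, DESeq2 or limma, and 3 had an unadjusted p under 0.05, against 14.8% of all genes, with 1 without SCNx CT16 or SCNx CT24 and 5 without Ctrl CT16.

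The 3 rhythmic members of Ctrl were Ifitm1, Ifih1 and Ifit3b. Ifitm1 ranged over 5.78, 8.13 and 12.5 CPM in Ctrl, highest at CT16 and CT36 and lowest at CT0 and CT32. Its fitted amplitude was 0.38 ± 0.09 (SE) in log2, from the mean to the peak of the curve, with a peak at CT15.2 and an edgeR adjusted p = 0.0182. In SCNx it ranged over 6.13, 7.33 and 10.2 CPM, highest at CT4 and CT8, with an amplitude of 0.22 ± 0.09, a peak at CT5.42 and an adjusted p = 0.368. Ifih1 ranged over 20.4, 28.7 and 30.8 CPM in Ctrl, with a small amplitude of 0.19 ± 0.05, a peak at CT10.4 and an adjusted p = 0.0229. Ifit3b ranged over 0.977, 2.53 and 4.67 CPM in Ctrl, with an amplitude of 0.86 ± 0.18, a peak at CT12.3 and an adjusted p = 0.0249. Ifit3b was high in both cycles near the fitted peak, with 4.15 CPM at CT16 and 4.67 at CT36, and low at 0.977 at CT0 and 1.11 at CT24.

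Each of these calls was lost when certain single mice were left out. Without Ctrl CT16 the Ifitm1 rhythm had an edgeR adjusted p = 0.0701, and 0.0471 without Ctrl CT16 and SCNx CT0 together. The Ifih1 rhythm was lost without Ctrl CT8, CT24, CT36 or CT44 (edgeR adjusted p = 0.0572, 0.0504, 0.0518 and 0.0545), and the Ifit3b rhythm without Ctrl CT0, CT24 or CT36 (0.0761, 0.0809 and 0.0689). Leaving out Ctrl CT24 left 1 rhythmic member in edgeR. Sp100 and Stat2 came next in Ctrl, with amplitudes of 0.25 ± 0.10 and 0.18 ± 0.05 and adjusted p-values of 0.131 and 0.140. In SCNx the lowest p-values belonged to Sp100, Xaf1 and Parp9, whose adjusted p-values were 0.245, 0.314 and 0.318.

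The rhythm itself was then compared between the groups. Ifitm1 alone of the 39 members passed, against 2.12% of all genes, with an edgeR adjusted p = 0.0348. The curve of the difference between the fits, which holds shifts of phase as well as of amplitude, had a log2 amplitude of 0.57. The call was lost in 12 of 24 fits that left out 1 library, with adjusted p-values from 0.0164 to 0.0929, the highest without Ctrl CT16. It was also lost without Ctrl CT16 and SCNx CT0 together, at an adjusted p = 0.0510. At an unadjusted p under 0.05 there were 12 members of 39, or 30.8%, against 15.1% of all genes in the fit of all libraries. Single left-out libraries moved this count from 7 (without Ctrl CT24) to 14 (without Ctrl CT4), with no share of all genes given for those fits. The 12 were Ifitm1, Ifih1, Ifit3b, Parp9, Xaf1, Parp14, Dtx3l, Stat2, Sp100, Ifitm2, Ifitm3 and Irf9. For Ifih1 the adjusted p was 0.0755 and for Ifit3b 0.147. All 3 of the PARP and ubiquitin ligase group stood among the 12. Parp9 and Dtx3l, which act as a complex, had fitted peaks at CT9.30 and CT12.8 in Ctrl and at CT1.76 and CT1.11 in SCNx. Neither gene had a rhythm that passed in Ctrl (edgeR adjusted p = 0.149 and 0.342) or in SCNx (0.318 and 0.407). Neither passed the adjusted test for the difference (0.178 and 0.219).

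**Figure D4:**
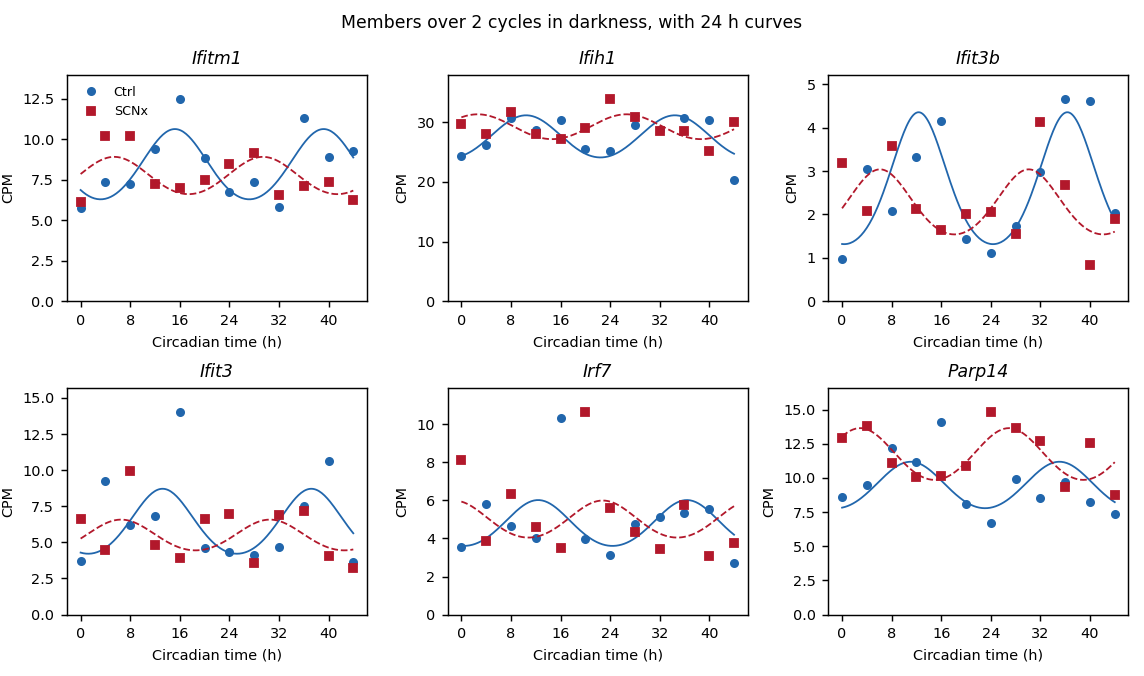
CPM of 6 members by circadian time in Ctrl (blue circles, solid curve) and SCNx (red squares, dashed curve), 1 mouse per point, with curves drawn from the edgeR 24 h fit around each group's mean log2 level. Ifitm1 peaks at CT15.2 in the Ctrl curve and at CT5.42 in the SCNx curve, while Irf7 has single high points at Ctrl CT16 and SCNx CT20.

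The second cycle in darkness was compared with the first. In Ctrl, 32 of 39 members had a lower estimate in the second cycle, or 82.1%, against 53.1% of all genes, with a median of -0.08. No member passed the adjusted test in edgeR or limma. At an unadjusted p under 0.05 there were 2, Parp14 at -0.33 ± 0.12 and Stat2 at -0.18 ± 0.08 (log2, SE), against 4.28% of all genes, and Sp100 followed at -0.19 ± 0.12. The count of 2 was 1 without Ctrl CT4, CT16, CT32 or CT40, 4 without Ctrl CT12 and 5 without Ctrl CT28. Ctrl CT16 belongs to the first cycle, and without it Parp14 stood at -0.23. In SCNx, 22 members were lower and 17 higher, against 6427 lower and 7270 higher of 13697 tested genes. None of the members passed the adjusted test in edgeR or limma, and 6 had an unadjusted p under 0.05, against 18.6% of all genes. The count of 6 was 1 without SCNx CT8, 2 without SCNx CT32, 3 without SCNx CT0 or CT12 and 10 without SCNx CT36. Of these 6, Ifi35 stood at -0.24 ± 0.08, Ifitm2 at -0.19 ± 0.08, Ifitm3 at -0.37 ± 0.15 and Ifi27 at -0.21 ± 0.10, while Ifnar1 and Adar had positive estimates of 0.08 ± 0.04 and 0.22 ± 0.10.

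The other genes of the pathway were read from a list of 72 symbols, of which 69 were found and 51 tested. The ligands were at the edge of detection. The 5 genes Ifne, Ifna1, Ifna4, Ifnl2 and Ifnl3 had 0 counts in all 24 libraries, Ifnb1 had at most 1 count in 2 libraries, and Ifng at most 4 counts with a Ctrl mean of 0.017 CPM. Of the 51, 0 passed the adjusted test for SCNx against Ctrl in edgeR. At an unadjusted p under 0.05, 13 were higher in SCNx and 0 lower, beside the 4.78% of all genes, and the 13 became 14 without Ctrl CT16 and SCNx CT0. Gbp4 had the lowest p, with a mean of 2.39 ± 0.83 CPM in Ctrl and 3.67 ± 0.72 in SCNx (SD, n = 12 each), a log2 difference of 0.63 ± 0.16 (SE) and an edgeR adjusted p = 0.366. Tgtp2 differed by 0.56 ± 0.20, Ifi47 by 0.40 ± 0.18 and Psmb8, a subunit of the immunoproteasome, by 0.38 ± 0.14. The others were Gbp5, Gbp6, Gbp9, Irf5, Ifi204, Phf11d, Slfn8, Jak1 and Stat3. Of the GTPases in this list, Irgm2 at 0.09 ± 0.07 and Tgtp1 at 0.03 ± 0.18 were not among the 13, nor were any of the 5 member GTPases among the members at that p. The macrophage and microglia markers given above also had higher means in SCNx, as did most lymphocyte, neutrophil, erythroid, hepatocyte and endothelial markers. The part of these markers in the pathway estimates was not tested.

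In the same list, 3 of 51 tested genes were rhythmic in Ctrl, beside 10.7% of all genes, namely Tyk2, Slfn5 and Tor3a. Tyk2, the kinase on IFNAR1, had an amplitude of 0.14 ± 0.03 in Ctrl with a peak at CT17.2. In SCNx its amplitude was 0.16 ± 0.04 with a peak at CT0.63, which did not pass (edgeR adjusted p = 0.138). The difference of its rhythm passed, with an edgeR adjusted p = 0.0311. Leaving out 1 library at a time moved this p from 0.00677 to 0.0745, and 10 of 24 such fits did not pass, the highest value coming without SCNx CT16. With no filter on low counts it was 0.323. No other tested gene of the list passed for the difference, so 1 of 51 did, beside 2.12% of all genes.

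The KO libraries were set beside the range of the 12 Ctrl libraries with joint scaling and no test, because each time point had 1 mouse. Tissue capture, freezing, library kit, RNA integrity, age, site, sham surgery, lighting and tamoxifen differed as well. The paper reports a lower average RNA integrity for the frozen KO samples. These differences cannot be told apart from the deletion. Arntl, the targeted gene, stood at 10.9 CPM in KO ZT7 and 8.92 in KO ZT18, within the Ctrl range of 2.02 to 39.9, so bulk counts alone did not show the deletion. The paper states that a partial Arntl transcript remains in KO and that its protein does not function, as an exon is cut out. Counts per gene do not resolve this. Across all genes the median log2 difference of KO from Ctrl was -0.26, and that of the 39 members was -0.22. Both KO libraries lay below all Ctrl libraries for 14 of 39 members, or 35.9%, against 42.3% of all genes. Both lay above for 4, or 10.3%, against 16.9%. Neither share was larger than that of genes at large. With DESeq2 size factors, 13 were below and 7 above, against 34.3% and 22.3% of all genes, and the medians moved to -0.07 for members and -0.10 for all genes.

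By role, the members below were 4 of 6 restriction factors, 2 of 2 receptors, 2 of 4 transcription factors, 1 of 2 of the ISG15 system, 1 of 5 GTPases and 4 of 8 other induced genes. Bst2 stood at 10.7 CPM in KO ZT7 and 10.1 in KO ZT18, against 28.3 to 42.04 in Ctrl. Ifitm1 stood at 4.10 and 2.95 CPM, against 5.79 to 12.6. Ifitm2 stood at 18.8 and 21.0 CPM, against 45.7 to 66.1. Ifitm3 stood at 12.3 and 18.2 CPM, against 25.6 to 60.7. Both receptors were below as well, Ifnar1 at 28.0 and 30.2 CPM and Ifnar2 at 46.8 and 45.8. Ifi27, a mitochondrial and nuclear envelope protein, stood at 109.6 and 83.2 CPM, against 229.7 to 321. None of the 5 tested sensors and effectors lay outside the Ctrl range in both libraries, but each did in 1. In KO ZT7, Adar (38.2 CPM), Samhd1 (15.6) and Oasl2 (3.68) were below their lowest Ctrl values of 39.7, 17.8 and 3.74. Ifih1 at 31.3 CPM was just over its highest Ctrl value of 30.8 there. In KO ZT18, Eif2ak2 at 34.4 CPM was below its lowest Ctrl value of 38.7.

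The 4 members above were Ifit2, Gbp3, Gbp7 and Parp14. Ifit2 stood at 8.43 CPM in KO ZT7 and 8.60 in KO ZT18, against 2.76 to 6.71 in Ctrl. Gbp7 stood at 12.0 and 12.4 CPM, against 6.05 to 9.91. Gbp3 stood at 8.67 and 9.50 CPM, just over the highest Ctrl value of 8.59, and Parp14 at 14.5 and 16.2, over 14.2. Ifit3b at 5.28 and 3.85 CPM and Gbp2 at 7.54 and 9.13 passed their highest Ctrl values, 4.68 and 8.10, in 1 KO library only. Ifit3 at 10.7 and 10.3 CPM stood high but within the Ctrl range. Low and high members therefore occurred in the same 2 libraries. The epithelial markers summed to 89012 and 77947 CPM in KO, below every Ctrl library. The 5 oligodendrocyte markers summed to 317 and 425 CPM and the astrocyte markers to 768 and 825, above the highest Ctrl sums of 149 and 725. The neuronal markers summed to 224 and 286 CPM, against a Ctrl median of 17.03. Their highest Ctrl sum, 325, belonged to Ctrl CT4, as did those of 149 and 725. The part of tissue makeup in the KO values was not tested. From ZT7 to ZT18 the median absolute log2 difference of the 39 members was 0.28, against 0.23 over all genes, between 1 mouse and another.

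**Figure D5:**
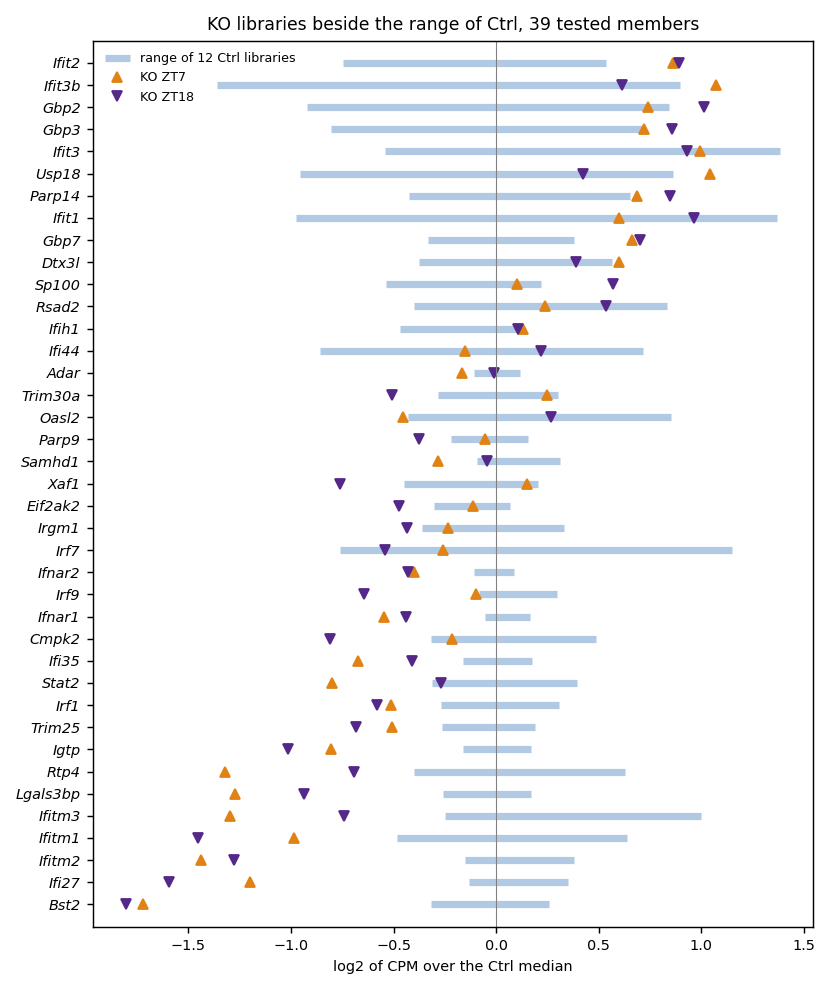
Log2 of CPM over the Ctrl median for the 39 tested members, with the range of 12 Ctrl libraries as a bar and the KO libraries of ZT7 and ZT18 as triangles, 1 mouse each. Bst2 lies lowest at 10.7 and 10.1 CPM, and Ifit2, Gbp3, Gbp7 and Parp14 lie above the Ctrl range in both.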

How the data were processed

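The members and gene lists were chosen with earlier results of these data known. The authors deposited estimated counts per gene, made with Salmon 1.9.0 after alignment to GRCm39, in 1 table for Ctrl and SCNx and 1 for KO. Groups and times came from the labels. Counts were rounded, genes with a mean of at least 1 CPM in Ctrl and in SCNx were kept, and quasi-likelihood models were fitted to 13697 genes in edgeR 4.0.16 (R 4.3.3) with TMM scaling and Benjamini-Hochberg adjustment over all of them. Models held the group, a 24 h cosine and sine per group, their difference, or a term for the second cycle. An amplitude's SE came from least squares residuals of log2 CPM with a prior count of 1. Members named for a test were those with the lowest p-values, 5 in each direction for level, 5 and 3 for rhythms and 3 for the difference and the cycles, and the 5 with the widest spread or farthest from Ctrl in each direction in KO. Others were added after their values were seen. KO and Ctrl were scaled together by TMM and compared by range. Totals per library ran from 17425207 to 49527655 counts. Each mouse gave 1 library, so p-values measure the spread between mice at different times. DESeq2 1.42.0 and limma 3.58.1 were alternatives, as were other scaling, filters and left-out libraries. Fits were checked on simulated counts. Promoter motifs were searched in Python with RefSeq windows. Figures used matplotlib.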

Additional observations from a re-analysis of the deposited data

Results flagged for a closer look

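Ifitm1 was marked because its 24 h rhythm differed between SCNx and Ctrl by a test of the difference itself (edgeR adjusted p = 0.0348, log2 amplitude of the difference curve 0.57). Tyk2, from the list of other pathway genes, was marked for the same reason (edgeR adjusted p = 0.0311). Both calls were lost in some fits that left out 1 library, 12 of 24 for Ifitm1 and 10 of 24 for Tyk2. Libraries that depart from their group were not marked by Dixon's test, which was not run on groups of 12.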

How the results depend on the processing

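The count of members whose rhythm differed between the groups, 1 in the main test, was 2 under DESeq2 (with Ifih1 at an adjusted p = 0.0222), 2 without Ctrl CT4 and SCNx CT32 (with Ifit3b at 0.0238), 0 without Ctrl CT16 and SCNx CT0, and 0 with time point as a replicate block. The block was no pairing by design, since same-time mice were different animals, and 5 of 12 pairs deviated together with a correlation over 0.1 (from -0.44 to 0.34). Only 1 of 12 Ctrl libraries lay closest to the SCNx library of its own time. Under the block the adjusted p of Ifitm1 was 0.0551 and 7 members had an unadjusted p under 0.05 for the difference. Leaving out 1 library at a time gave 0 to 2 members for this difference, 1 to 4 for rhythms in Ctrl and 0 for rhythms in SCNx, level and both cycle tests. Members above the Ctrl range in KO numbered 7 with DESeq2 size factors. The rhythm of Ifih1 had an adjusted p = 0.0897 with no filter and that of Ifit3b 0.0509 with a linear trend. Members highest in Ctrl CT16 numbered 21 with DESeq2 size factors and 16 by library totals. These scalings, the spread and pathway counts without libraries, and the Tyk2 refits were chosen after seeing the data, and Tyk2 had an adjusted p = 0.203 under the block. Over all genes, calls for level numbered 0 in edgeR and 14 in DESeq2, for rhythms in SCNx 0, 432 in DESeq2 and 1384 with no filter, and for rhythms in Ctrl 1459 and 2223 without Ctrl CT4 and SCNx CT32. Calls for the difference numbered 291, 589 in DESeq2, 654 with no filter, 504 without Ctrl CT4 and SCNx CT32, and 98 under the block. The causes were not tested. Shares of all genes given in percent belong to the main fit unless another fit is named beside them. Counts of members from other fits and scalings therefore mostly have no matching share. With 1 mouse per time and group, time and mouse cannot be separated.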
